A study of Mus musculus with 12 samples.

Results

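In this comparison, polyadenylated RNA from mouse embryonic stem cells (mESCs) that lack HMGN1 was set against RNA from unedited cells, to ask which genes depend on the protein and what those genes do. The libraries were chosen by genotype label, which gave 6 of the 12 libraries of the series: 3 of WT mESCs and 3 of Hmgn1-/- mESCs. The other libraries came from Hmgn2-/- mESCs and Hmgn1-/-Hmgn2-/- mESCs, and they were used here for a direct test against Hmgn2-/- mESCs, for a fit of all 12 libraries and to compare the replicates. HMGN1 is a small nucleosome-binding protein that has no enzyme activity of its own. It binds the acidic patch of the nucleosome core and is found mainly at the enhancers and promoters of active genes. All cells were of the v6.5 male line, grown on gelatin in serum with leukemia inhibitory factor, a cytokine that holds mESCs in a self-renewing state. WT mESCs are the parental line. The Hmgn1-/- mESCs are a single clone made with CRISPR-Cas9 that carries a homozygous frameshifting deletion in exon 3 of Hmgn1, so that effects of the deletion and of the isolation of that clone cannot be told apart. The replicates are described as biological triplicates of each line, and the p-values measure the spread among them and not among independent clones. Total counts over genes were 31448468, 17614490 and 28524108 in the WT libraries and 25953244, 21059862 and 21993042 in the Hmgn1-/- libraries.

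The guide RNA used to cut Hmgn1 is shown because it fixes where the coding sequence was interrupted. Its exonic bases are in capitals.
Hmgn1 guide: acttacGGCCGACAGCCTCG
Hmgn1 lies on the minus strand of chr16:96120618-96127729 (GRCm38), and its principal transcript has 6 exons. The guide reads the plus strand at chr16:96127305-96127324. Its last 14 bases pair with the end of exon 3 (chr16:96127311-96127340), its other 6 bases run into the intron that follows, and the CGG next to it, the motif that Cas9 needs, lies inside the exon at chr16:96127325-96127327. The positions of the intronic bases follow from the match of the exonic ones. The edit does not remove the promoter or the exons downstream, so reads can still be counted over the gene.

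Hmgn1 RNA was nevertheless lower in every Hmgn1-/- library than in any WT library. Levels are given as CPM, the count of a gene scaled to a library of 1000000 counts, with library sizes set by the trimmed mean of M values (TMM). Hmgn1 was measured at 666, 599.9 and 615 CPM in WT mESCs and 139, 140.1 and 142 CPM in Hmgn1-/- mESCs. The mean was 627 ± 35.0 CPM (SD, n = 3) in WT and 140.3 ± 1.75 CPM (SD, n = 3) in Hmgn1-/- mESCs. The log2 fold change (log2 FC, Hmgn1-/- over WT) was -2.16, SE = 0.06, adjusted p = 3.36e-11, which separates the libraries as labelled. RNA of the edited gene remained in each Hmgn1-/- library. Among the other HMG genes, 1 of the 8 tested was past the threshold, against 5.98% of all tested genes. Hmga2, which encodes an AT-hook protein of early embryos, was measured at 20.7, 27.7 and 32.4 CPM in WT mESCs and 5.63, 6.73 and 6.64 CPM in Hmgn1-/- mESCs, and its log2 FC was -2.09, SE = 0.16, adjusted p = 4.59e-07. Here and below a gene is called a differentially expressed gene (DEG) or said to be past the threshold at an adjusted p below 0.01 and a log2 FC of at least 1 in either direction. Hmgn2, the closest relative of Hmgn1, was measured at 138, 123 and 119.7 CPM in WT mESCs and 106, 114 and 109.8 CPM in Hmgn1-/- mESCs. It did not pass the test (log2 FC = -0.21, SE = 0.06, adjusted p = 0.0275). Hmgb2, which bends DNA, and Hmgn5, a larger HMGN protein, passed the adjusted p but not the fold limit, with log2 FC 0.38 and -0.51. Hmgn3, Hmgb1, Hmgb3 and Hmga1 did not pass either limit, and Hmgb4 had no count in any of the 6 libraries.

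**Figure D1:**
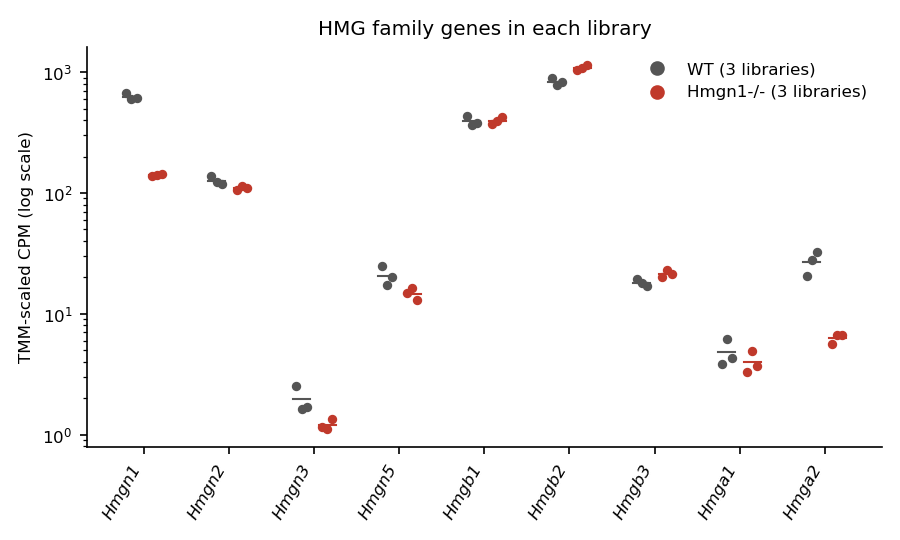
TMM-scaled CPM (log scale) of the HMG family genes tested, with a point for each library and a bar at each group mean. Hmgn1 and Hmga2 are the genes past the threshold, with log2 FC -2.16 and -2.09.

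Across all genes the comparison was mainly one of falls. Of 13917 genes tested, 832 were DEGs (5.98%), of which 707 were lower (5.08%) and 125 were higher (0.898%) in Hmgn1-/- mESCs. Falls made up 85% of the DEGs. At the adjusted p alone 2412 genes passed (17.3%), 1013 of them higher (7.28%) and 1399 lower (10.1%), and of those below the fold limit 888 were higher (6.38%) and 692 lower (4.97%). Of these 888 genes, 256 were on chromosome 8, which is described below. The median log2 FC of all tested genes was 0.00. The groups did not overlap for 5871 genes (42.2%) and for 831 of the 832 DEGs. A fold of at least 4 in size was fitted for 271 of the falls and for 23 of the rises.

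DEGs were found mostly among genes of low or middling level. Genes were classed by the mean of both groups. Of the 1600 genes between 1 and 3 CPM, 17.8% were DEGs, 242 lower (15.1%) and 42 higher (2.62%), the largest shares of any class. Of the 2295 genes over 100 CPM, 0.436% were DEGs, 7 lower and 3 higher. Counts in the groups of genes below are to be read beside these shares and those of all genes. The DEGs with the highest mean CPM that fell were Hmgn1 itself, Klhl13 (an adaptor of a ubiquitin ligase), Sept1 (a septin), Tpm1 (tropomyosin) and Krt8 (keratin 8). Klhl13 was measured at 256, 274 and 272 CPM in WT mESCs and 45.3, 58.2 and 56.2 CPM in Hmgn1-/- mESCs, and its log2 FC was -2.33, SE = 0.08, adjusted p = 9.47e-10. On the rising side they were Lama1 (laminin alpha 1), Ntn1 (netrin 1), H2afy (a macroH2A histone), Dnajc6 (auxilin, which uncoats clathrin vesicles) and Kirrel2 (an adhesion protein). The call for H2afy was lost without WT replicate 2 (log2 FC 0.99) and, by a smaller margin, without WT replicate 3, and that for Kirrel2 without WT replicate 3 or Hmgn1-/- replicate 2 (0.89 and 0.99).

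**Figure D2:**
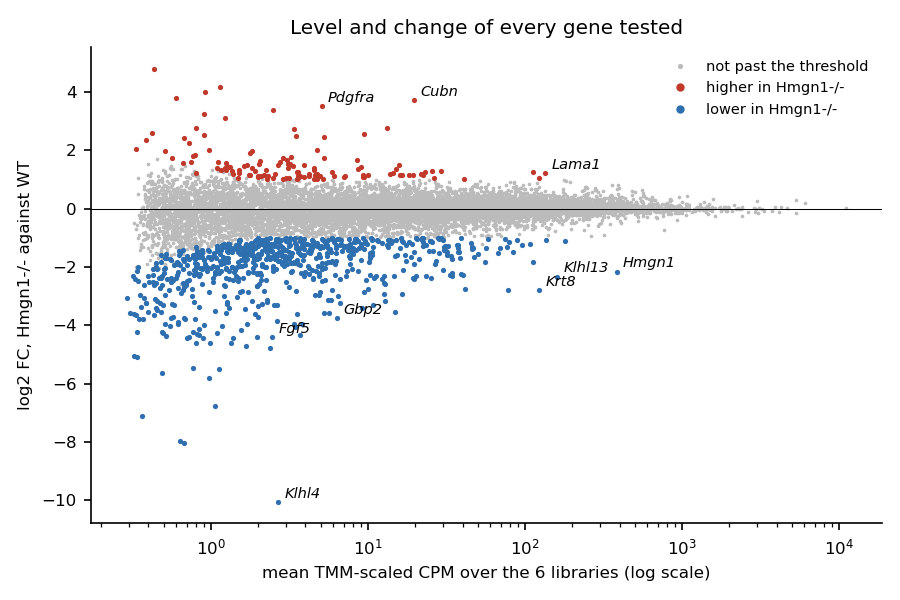
Mean TMM-scaled CPM over the 6 libraries (log scale) against log2 FC for each of the 13917 genes tested, with the 125 DEGs higher in Hmgn1-/- in red and the 707 lower in blue. The blue points spread farther from 0 than the red ones, and the lowest point, Klhl4, is a fitted value for a gene with no count in Hmgn1-/- libraries.

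The 15 largest falls, taken among DEGs that averaged 50 counts or more over the 6 libraries and whose groups did not overlap, came from several kinds of gene. Klhl4, an X-linked relative of Klhl13, was measured at 8.02, 4.24 and 3.82 CPM in WT mESCs and had no count in any Hmgn1-/- library. Against a floor of 3 counts per library it was at least 40.4-fold lower. Among the others were Fgf5, a secreted growth factor of the primed epiblast, Prss23, a serine protease, and Gbp2, an interferon-inducible GTPase, with log2 FC -4.40, -4.32 and -3.74. T (brachyury), the X-linked genes Usp26 and Pnma5, the muscle actin gene Acta1 and the cytokine gene Csf1 followed, between -3.71 and -3.56. The remaining 6 of the 15 were Gm5662, Gm5039 and 4 members of the Zscan4 family. The Zscan4 genes are near-identical copies, among which reads may be split or lost, so their separate values are uncertain, and the same may hold for the unnamed Gm genes.

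Genes placed in the endoderm lists made up most of the 15 largest rises, chosen in the same way. Those lists were written with earlier results of these data known, so this majority may owe something to that choice. Of the 15, Cubn, Pdgfra, Sox17, Dab2, Srgn, Gata4, Foxq1, Gata6 and Amn were members of the endoderm lists described next. The other 6 were Nexn (an actin-binding protein), Tnfrsf25 (a death receptor), Adamtsl1 (a matrix protein), Rln3 (a relaxin peptide), Cyp27b1 (the enzyme that activates vitamin D) and the uncharacterised Gm996, with log2 FC between 1.60 and 2.02.

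Most of the primitive endoderm genes chosen as regulators and receptors rose in Hmgn1-/- mESCs. The primitive endoderm is the layer of the early embryo that lines the blastocyst cavity and later forms the yolk sac, and a small fraction of cells in serum cultures of mESCs is known to express its genes. In bulk RNA, a larger number of cells of a type and more RNA per cell cannot be told apart, nor can fewer cells and less RNA. Of 9 transcription factors of this lineage, all tested, 6 rose and none fell, against 0.898% of all tested genes that rose, and their median log2 FC was 2.47. Gata4, a zinc finger factor that can drive mESCs into this fate, was measured at 2.93, 2.21 and 2.96 CPM in WT mESCs and 17.3, 16.2 and 14.9 CPM in Hmgn1-/- mESCs. Its log2 FC was 2.55, SE = 0.14, adjusted p = 4.13e-08. Gata6, which acts beside it, was measured at 1.32, 1.98 and 1.70 CPM in WT mESCs and 10.4, 8.70 and 7.42 CPM in Hmgn1-/- mESCs, and its log2 FC was 2.44, SE = 0.20, adjusted p = 1.01e-06. Both genes were several times higher in each Hmgn1-/- library than in any WT library. Sox17, an HMG-box factor of endoderm, was measured at 0.503, 0.452 and 0.348 CPM in WT mESCs and 4.28, 4.81 and 4.56 CPM in Hmgn1-/- mESCs, and its log2 FC was 3.37, SE = 0.25, adjusted p = 4.04e-07. Foxq1 also rose, from a WT mean of 1.03 CPM to 5.97 CPM. So did Tfec, with 2 counts over the WT libraries and 58 over the Hmgn1-/- libraries, a ratio of 33.1 with an exact 95% interval of 8.77 to 280.1 that covers counting error only. With at least 10 counts in every library, which leaves out genes near 0 in WT such as Tfec, 5 were tested and 3 rose. Sox7, Foxa2 and Hnf4a were not past the threshold, with log2 FC 0.59, 1.12 and 0.16.

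Receptors and endocytic proteins of the same lineage gave like values. Of 9, all tested, 7 rose (77.8%, against 0.898% of all tested genes) and none fell, with a median log2 FC of 2.51. Cubn encodes cubilin, the receptor with which the yolk sac takes up nutrients, and was measured at 2.30, 3.56 and 2.64 CPM in WT mESCs and 44.6, 29.4 and 34.9 CPM in Hmgn1-/- mESCs, with a log2 FC of 3.72, SE = 0.18, adjusted p = 1.11e-08. Amn, which encodes the membrane partner of cubilin, was measured at 2.80, 2.26 and 2.16 CPM in WT mESCs and 7.98, 8.31 and 7.97 CPM in Hmgn1-/- mESCs, and its log2 FC was 1.74, SE = 0.16, adjusted p = 3.15e-06. Dab2, the adaptor that links such receptors to clathrin, was measured at 3.18, 3.17 and 3.82 CPM in WT mESCs and 28.4, 18.3 and 22.1 CPM in Hmgn1-/- mESCs, and its log2 FC was 2.76, SE = 0.17, adjusted p = 8.20e-08. All members of this uptake machinery named so far had groups that did not overlap. Pdgfra, a growth factor receptor widely used to mark primitive endoderm, was measured at 0.787, 0.735 and 0.869 CPM in WT mESCs and 9.71, 9.80 and 8.48 CPM in Hmgn1-/- mESCs, and its log2 FC was 3.53, SE = 0.18, adjusted p = 1.99e-08. Nostrin, Klb (a co-receptor for endocrine FGFs) and Pth1r (the parathyroid hormone receptor) rose as well, with log2 FC 4.18, 2.51 and 1.49. Lrp2, which encodes megalin, was not past the threshold (-0.27), and Fgfr2, the receptor through which FGF4 acts on this lineage, was lower without reaching the fold limit (log2 FC = -0.69, SE = 0.14, adjusted p = 0.00213).

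**Figure D3:**
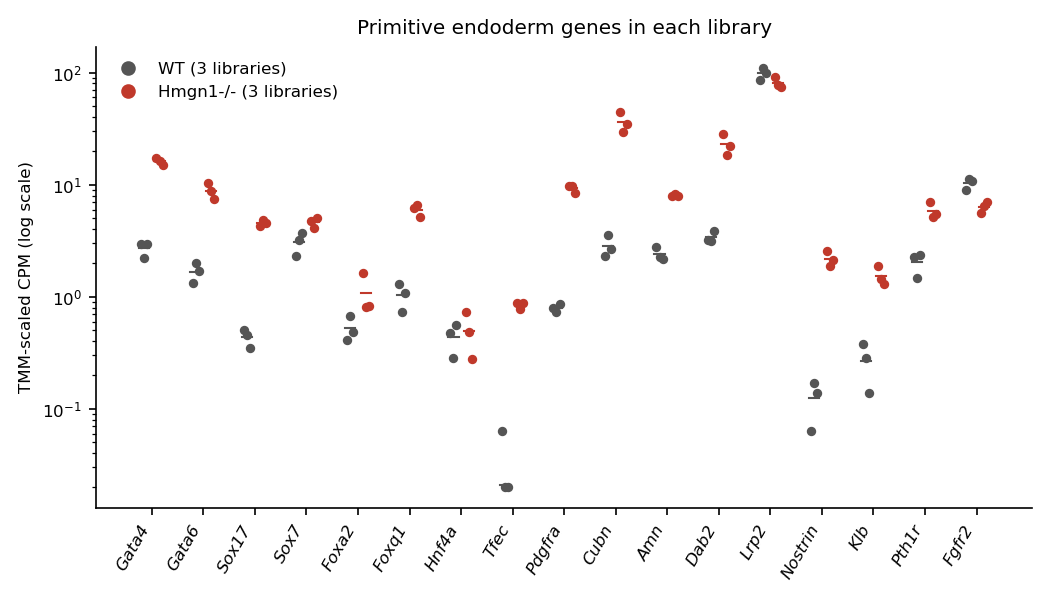
TMM-scaled CPM (log scale) of 8 of the transcription factors and the 9 receptors and endocytic genes of primitive endoderm, with a point for each library and a bar at each group mean. Values of 0 are drawn at 0.02 CPM. For the 12 genes shown that rose, the 3 Hmgn1-/- points lie above the 3 WT points.

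Products that the mature endoderm makes rose in part. Of 14 genes for secreted proteins of visceral endoderm, 10 were tested, 4 rose (40%, against 0.898% of all tested genes) and none fell. The median log2 FC of those tested was 0.58. Summed over the list, the level was 582, 581 and 557 CPM in WT mESCs and 521, 504 and 512 CPM in Hmgn1-/- mESCs. It was thus lower in every Hmgn1-/- library, and Apoe was the gene with the highest CPM. Of the list 7 had at least 10 counts in every library, and of these 1 rose and 1 fell in a fit of such genes alone. The 4 that rose were Habp2 (a plasma protease), Srgn (a proteoglycan core protein), Bmper (a BMP-binding protein) and Dkk1 (a Wnt inhibitor). Dkk1 was measured at 0.220, 0.170 and 0.348 CPM in WT mESCs and 2.31, 2.07 and 2.26 CPM in Hmgn1-/- mESCs, and its log2 FC was 3.10, SE = 0.33, adjusted p = 1.07e-05. Apom, an apolipoprotein, missed the adjusted p as a fall (log2 FC = -1.23, adjusted p = 0.0107) and was called lower with the replicate block (adjusted p = 0.00669), with upper quartile scaling, with no filter beyond 1 count, with at least 10 counts in every library and without WT replicate 1 (-1.41). The classical products Ttr, Afp, Apoa1 and Cer1 were too low to test, Ttr and Cer1 having no count in any of the 6 libraries. Apob and Rbp4 had log2 FC 0.21 and -0.46 and did not pass. Of 10 basement membrane genes, 1 was past the threshold (10%, against 5.98% of all tested genes). That was Lama1, measured at 69.0, 91.0 and 84.2 CPM in WT mESCs and 203, 180.1 and 179.7 CPM in Hmgn1-/- mESCs, and its log2 FC was 1.21, SE = 0.09, adjusted p = 4.04e-07. Col4a1 and Col4a2, the collagen IV chains that primitive endoderm deposits, passed the adjusted p below the fold limit (0.83 and 0.62). Sparc and Nid1, also made by endoderm, passed it in the opposite direction (-0.92 and -0.62). Sparc passed the fold limit, for 2 calls in the list, without WT replicate 1 (-1.09) or Hmgn1-/- replicate 3 (-1.04).

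No gene of those that define the pluripotent state was past the threshold. Of 17 naive and core pluripotency genes, all tested, edgeR called 0 at the threshold and DESeq2 also called 0, while 10 had an unadjusted p under 0.05 (58.8%, against 38.7% of all tested genes). At the adjusted p alone 4 were higher and 3 lower, with log2 FC from -0.59 to 0.93 over the list. Pou5f1, the gene for OCT4, was measured at 1885, 2036 and 2022 CPM in WT mESCs and 1794, 1809 and 2033 CPM in Hmgn1-/- mESCs, with log2 FC -0.08. Sox2 was at 537, 538 and 546 CPM in WT mESCs and 578, 598 and 585 CPM in Hmgn1-/- mESCs, with log2 FC 0.12. The groups of Pou5f1 overlapped, and those of Sox2 differed by less than the fold limit. Nanog, which holds back primitive endoderm genes, was measured at 274, 238 and 262 CPM in WT mESCs and 205, 201 and 214 CPM in Hmgn1-/- mESCs, with a log2 FC of -0.32, SE = 0.06, adjusted p = 0.0014. Klf4, Gbx2 and Esrrb, genes that sustain self-renewal, were higher below the fold limit (0.93, 0.91 and 0.47). Klf4 passed it without WT replicate 1 (1.01) and Gbx2 without WT replicate 3 (1.01). Klf2, another gene of that network, was lower below the limit (-0.35).

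A pair of the genes of the formative and primed states, which follow on the naive one, fell. Of 12, 2 fell (16.7%) and none rose, with a median log2 FC of -0.54. In this list 11 had at least 10 counts in every library, and of these 1 fell. Fgf5 was measured at 5.38, 5.09 and 3.69 CPM in WT mESCs and 0.308, 0.144 and 0.184 CPM in Hmgn1-/- mESCs, and its log2 FC was -4.40, SE = 0.32, adjusted p = 3.95e-07. Pou3f1 (OCT6) was measured at 99.6, 102 and 95.1 CPM in WT mESCs and 38.9, 41.7 and 36.8 CPM in Hmgn1-/- mESCs, and its log2 FC was -1.34, SE = 0.07, adjusted p = 1.99e-08. Otx2, Sox3 and Zic2, further factors of this state, had log2 FC -0.77, -0.95 and -0.83, below the fold limit, and without Hmgn1-/- replicate 2 Sox3 and Zic2 passed it (-1.09 and -1.04), giving 4 calls. Sox3 also passed without WT replicate 1 (-1.03). Tcf15, Dnmt3a and Etv4 were higher below the fold limit (0.98, 0.70 and 0.57), and Tcf15 passed the fold limit without Hmgn1-/- replicate 3 (1.01).

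Primitive streak and mesoderm genes fell in part. Of 13, 12 were tested, 7 fell and none rose, against 5.08% of all tested genes that fell, and the median log2 FC was -1.78. T, the brachyury factor that marks the streak, was measured at 1.60, 4.13 and 5.46 CPM in WT mESCs and 0.308, 0.240 and 0.277 CPM in Hmgn1-/- mESCs, and its log2 FC was -3.71, SE = 0.48, adjusted p = 6.39e-05. Wnt3 and Wnt8a, signals that induce the streak, were measured at means of 3.39 and 3.43 CPM in WT mESCs and 0.510 and 0.529 CPM in Hmgn1-/- mESCs, with log2 FC -2.67 and -2.66. Fgf8 and Hand1 also fell (-2.67 and -2.51). Calls for Evx1 and Kdr, the remaining pair, were lost without any of the libraries other than WT replicate 1, with adjusted p up to 0.0381 for Evx1 without Hmgn1-/- replicate 2 and 0.0308 for Kdr without WT replicate 3. Eomes, Mixl1, Gsc, Mesp1 and Tbx6 were not past the threshold, with log2 FC -0.65, 0.81, 0.14, 1.31 and 1.28. Tbx6 was called higher without WT replicate 1 (1.90), with the replicate block (1.32), with no filter beyond 1 count and at an adjusted p under 0.05. With at least 10 counts in every library, 3 genes of the list were tested and 1, Hand1, fell.

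Trophoblast and neural genes fell in part. Of 11 trophoblast regulators, 10 were tested, 4 fell and none rose, against 5.08% of all tested genes that fell. They were Gata3, Hand1, Ascl2 and Tfap2a. Gata3 was measured at 2.01, 5.43 and 4.94 CPM in WT mESCs and 0.347, 0.0481 and 0.922 CPM in Hmgn1-/- mESCs, and its log2 FC was -3.19, SE = 0.52, adjusted p = 4.17e-04. The call for Tfap2a was lost without any of the libraries other than WT replicate 1, with adjusted p between 0.0118 and 0.0187. Cdx2 and Tfap2c, other regulators of trophoblast, were not past the threshold (-0.52 and 0.02). Of 13 neural genes, 7 fell (53.8%, against 5.08% of all tested genes) and none rose, with a median log2 FC of -1.24. With at least 10 counts in every library 11 were tested and 5 fell. The falls were in genes of neurons, such as Mapt (tau), Vgf (a neuropeptide precursor), Nefm (a neurofilament) and Gap43 (a growth cone protein). Vgf was measured at 17.5, 22.8 and 25.3 CPM in WT mESCs and 2.66, 3.94 and 4.47 CPM in Hmgn1-/- mESCs, and its log2 FC was -2.58, SE = 0.18, adjusted p = 3.16e-07. Sox1 and Pax6, factors of neural progenitors, had positive values below the fold limit (0.57 and 0.75).

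Genes of the 2-cell-like state fell. This rare state of mESCs resembles the embryo at the time its genome is switched on, and Zscan4 is its usual marker. Of 22 list genes, 17 were tested and all 17 fell, against 5.08% of all tested genes, with a median log2 FC of -3.97. The filter admits a gene for its level in either group, here WT. With no filter beyond 1 count, which does not look at the groups, all 22 were tested and 20 fell. With at least 10 counts in every library none could be tested. Summed over the list, the level was 56.4, 47.3 and 40.7 CPM in WT mESCs and 3.70, 3.80 and 2.03 CPM in Hmgn1-/- mESCs. The 6 Zscan4 genes had log2 FC from -4.40 to -3.32, and the 4 tested Usp17l genes from -4.71 to -3.63. Tdpoz4, Obox6 and Ubtfl1 had between 2 and 3 counts over the Hmgn1-/- libraries, against 52, 46 and 49 over the WT libraries. For Tdpoz4 the ratio of WT to Hmgn1-/- was 15.2, with an exact 95% counting interval of 4.91 to 76.0. Zfp352 and members of the Tdpoz and Usp17l families were too low to test. Several of these genes belong to multi-copy families, so that the values of single members are uncertain while the sum is less affected by reads shared within a family.

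Germline genes were divided. Of 28, 27 were tested, 14 fell (51.9%) and 3 rose (11.1%), against 5.08% and 0.898% of all tested genes, with a median log2 FC of -1.31. Smc1b, the meiotic cohesin subunit, was measured at 9.44, 9.84 and 10.8 CPM in WT mESCs and 0.925, 1.25 and 1.29 CPM in Hmgn1-/- mESCs, and its log2 FC was -3.13, SE = 0.18, adjusted p = 4.99e-08. Mael, Piwil4, Fkbp6 and Gpat2, which serve the piRNA pathway that silences transposons, fell (-1.54, -2.10, -2.31 and -1.70), as did Hormad2, a protein of meiotic chromosome axes (-2.04), and Morc1, a transposon repressor (-1.31). Rhox6 and Rhox9, X-linked homeobox genes of a multi-copy cluster, fell too (-2.22 and -1.62). The 3 that rose were Rec8, another meiotic cohesin subunit, Tdrd1, a partner of piRNA proteins, and Dmrtb1, a factor of spermatogonia. Tdrd1 was measured at 2.08, 3.34 and 2.43 CPM in WT mESCs and 6.36, 7.40 and 5.53 CPM in Hmgn1-/- mESCs, and its log2 FC was 1.33, SE = 0.20, adjusted p = 1.97e-04. Rec8 had a log2 FC of 1.18, so that the meiotic cohesin genes Smc1b and Rec8 moved in opposite directions, with groups that did not overlap in either. Ddx4, Sycp3 and Mov10l1 were not past the threshold (0.52, 0.29 and 0.02). Dazl had a log2 FC of -0.92 and passed the fold limit only without Hmgn1-/- replicate 2 (-1.05).

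**Figure D4:**
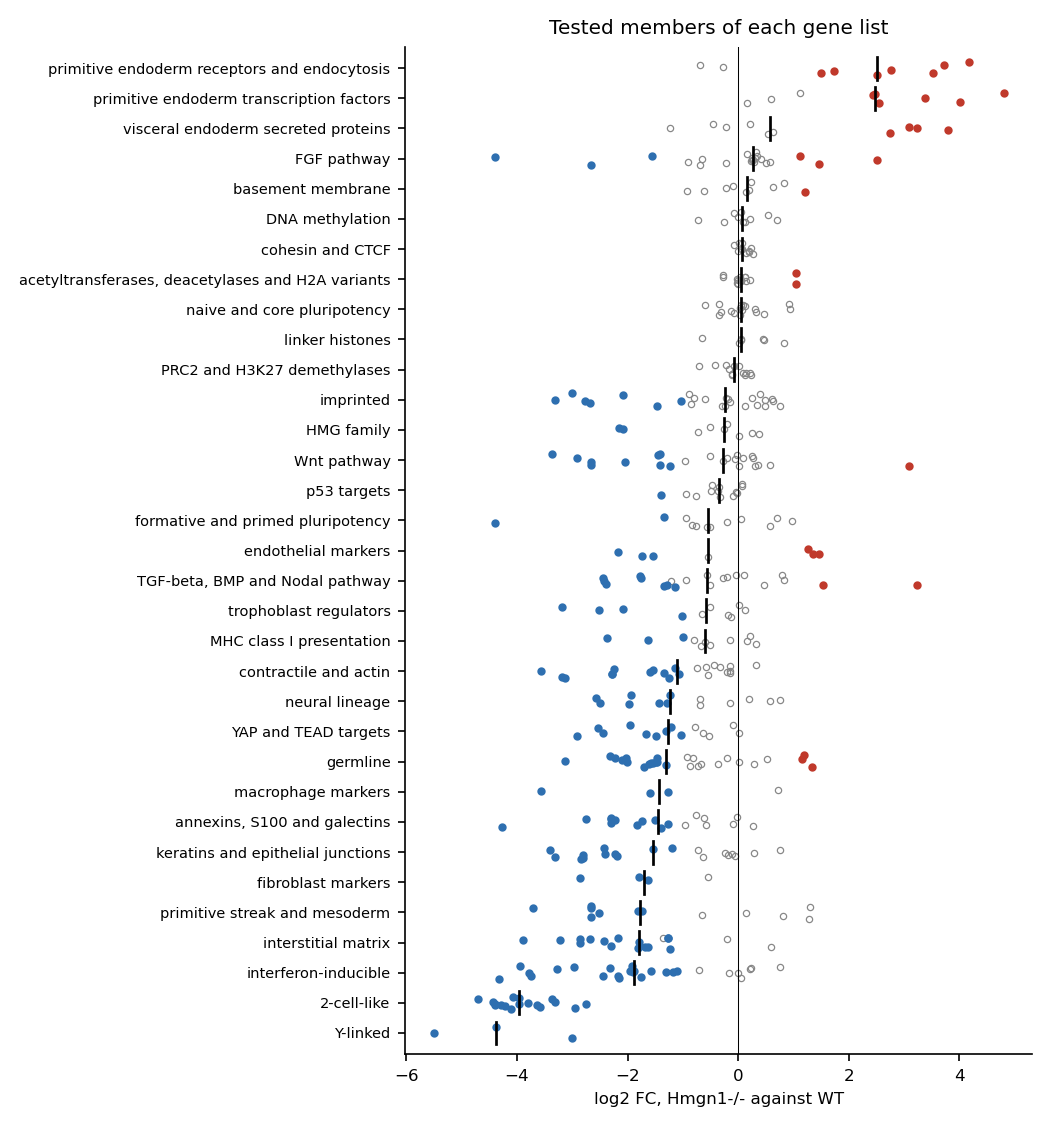
Fitted log2 FC of each tested member of the gene lists, ordered by list median (black bar). Filled points are past the threshold, red higher and blue lower in Hmgn1-/-, and open points are not. The endoderm lists stand at the top, with medians of 2.51 and 2.47, and the 2-cell-like and Y-linked lists at the bottom, with -3.97 and -4.39.

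Many genes for epithelial and mesenchymal cell structure fell in Hmgn1-/- mESCs, against 5.08% of all tested genes. Of 20 keratin and epithelial junction genes, 19 were tested, 11 fell (57.9%) and none rose, with a median log2 FC of -1.54. With at least 10 counts in every library 16 were tested and 8 fell. Krt8, which pairs with Krt18 in the keratin filaments of simple epithelia, was measured at 172, 199 and 274 CPM in WT mESCs and 26.5, 22.8 and 43.2 CPM in Hmgn1-/- mESCs, and its log2 FC was -2.80, SE = 0.20, adjusted p = 3.38e-07. Krt18 was measured at 108, 124 and 179 CPM in WT mESCs and 18.0, 16.2 and 24.8 CPM in Hmgn1-/- mESCs, and its log2 FC was -2.80, SE = 0.18, adjusted p = 1.19e-07. Krt7 and Krt19 fell along with them (-3.41 and -2.43), as did Dsp, the desmosome protein that anchors the filaments (-2.41). The call for Krt13 was lost without WT replicate 2 or 3 or Hmgn1-/- replicate 1 or 2, with adjusted p up to 0.0313. Cdh1 (E-cadherin) and Epcam, adhesion genes that mESCs themselves use, did not follow, with log2 FC 0.28 and -0.19.

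Contractile genes fell in similar part. Of 23, 22 were tested, 12 fell (54.5%, against 5.08% of all tested genes) and none rose, with a median log2 FC of -1.11. Tagln, a smooth muscle protein that binds actin filaments, was measured at 53.5, 51.2 and 60.8 CPM in WT mESCs and 9.17, 10.1 and 14.7 CPM in Hmgn1-/- mESCs, and its log2 FC was -2.29, SE = 0.14, adjusted p = 8.20e-08. Acta2 and Acta1, the smooth and skeletal muscle actins, had log2 FC -3.14 and -3.57, and Cald1 (caldesmon) had -2.29. The cytoplasmic actins were not past the threshold (-0.15 for Actb and 0.32 for Actg1), nor was Srf, the factor that drives many genes of this list (-0.14). Since SRF binds the CArG box, the 250 bases before each start were searched for that motif. It is palindromic, so a match on a strand is a match on both. Of the 20 tested genes with a promoter in the RefSeq table (GRCm38.p6), 8 held a match, against 1.39% of the 10981 tested genes with one and 1.47% of all 32851 promoters in the table. Many of the genes were put in the list because SRF is known to drive them, so a high share is expected. Of the 11 with a promoter that fell, Acta1, Myl9, Fhl1 and Fhl2 held a match, as did 4 of the 9 that were not past the threshold. The promoters of Acta1 (chr8:123894776-123895025, minus strand) and Myl9 (chr2:156775214-156775463, plus strand) are shown to let the match be seen beside its surroundings, with the CArG box in capitals.
Acta1: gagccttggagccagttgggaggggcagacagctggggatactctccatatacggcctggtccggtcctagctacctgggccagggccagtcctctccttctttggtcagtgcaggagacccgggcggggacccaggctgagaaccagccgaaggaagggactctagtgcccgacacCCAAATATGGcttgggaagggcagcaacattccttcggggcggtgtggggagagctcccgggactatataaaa
Myl9: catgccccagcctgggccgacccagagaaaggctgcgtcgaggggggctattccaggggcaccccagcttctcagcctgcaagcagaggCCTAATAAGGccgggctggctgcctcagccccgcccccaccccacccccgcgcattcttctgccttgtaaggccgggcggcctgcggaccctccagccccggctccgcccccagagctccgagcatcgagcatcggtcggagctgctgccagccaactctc
The first base of the match lies 73 bases before the start in Acta1 and 161 in Myl9. Acta1 was measured at 8.31, 10.1 and 12.7 CPM in WT mESCs and 0.578, 0.529 and 1.52 CPM in Hmgn1-/- mESCs, and Myl9, a myosin light chain, at 10.5, 11.6 and 10.1 CPM in WT mESCs and 3.74, 4.47 and 5.25 CPM in Hmgn1-/- mESCs. Actg1, Cnn2, Vcl and Srf itself, which were not past the threshold, also held a match.

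Most of the chosen targets of YAP and TEAD, the factors at the end of the Hippo pathway that respond to cell shape and tension, fell as well. Of 14, all tested, 9 fell (64.3%, against 5.08% of all tested genes) and none rose, with a median log2 FC of -1.26. Ctgf and Cyr61, the targets most often measured, were at 39.6, 79.7 and 77.8 CPM in WT mESCs and 23.7, 26.9 and 28.7 CPM in Hmgn1-/- mESCs for Ctgf and 41.1, 58.8 and 66.3 CPM in WT mESCs and 17.1, 19.6 and 22.4 CPM in Hmgn1-/- mESCs for Cyr61. Their log2 FC were -1.31 and -1.49. Thbs1 (thrombospondin) fell by 2.92 on the log2 scale. The call for Ankrd1 was lost with DESeq2 (adjusted p = 0.0127), with all 12 libraries in the fit (0.0188) and without any of the libraries other than WT replicate 1, and that for F3 without WT replicate 3 (-0.95) or Hmgn1-/- replicate 2 (-0.91). Ajuba and Wwc1, targets that act back on the pathway, were not past the threshold (-0.09 and 0.01).

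Most genes for the matrix that mesenchymal cells deposit fell. Of 20 interstitial matrix genes, 18 were tested, 15 fell (83.3%, against 5.08% of all tested genes) and none rose, with a median log2 FC of -1.79. With the replicate block 16 were past the threshold and none was higher, the call gained being that for Col5a2. Of the list 11 had at least 10 counts in every library, and of these 9 fell. Col1a1 and Col1a2, the chains of collagen I, had means of 4.28 and 2.69 CPM in WT mESCs and 1.25 and 0.367 CPM in Hmgn1-/- mESCs. Vcan (versican, a large proteoglycan) was measured at 25.0, 29.7 and 26.3 CPM in WT mESCs and 7.98, 7.78 and 7.37 CPM in Hmgn1-/- mESCs, and its log2 FC was -1.80, SE = 0.10, adjusted p = 5.84e-08. Fn1 (fibronectin) went the other way below the fold limit, at 390.2, 396 and 355 CPM in WT mESCs and 593, 667 and 459 CPM in Hmgn1-/- mESCs, and its log2 FC was 0.59, SE = 0.10, adjusted p = 6.07e-04. Since Fn1 was the gene of the list with the highest CPM, the summed level of the list was 501, 516 and 487 CPM in WT mESCs and 629, 704 and 492 CPM in Hmgn1-/- mESCs. Calls for Bgn, Col12a1 and Col6a1 were lost without Hmgn1-/- replicate 1, with adjusted p = 0.015, 0.0117 and 0.0109. Among all genes named as collagens, 26 were tested, 8 fell (30.8%) and none rose.

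Annexins, S100 proteins, galectins and related genes, whose products bind calcium, membranes, actin or sugars, fell in part. Of 19, 18 were tested, 11 fell (61.1%, against 5.08% of all tested genes) and none rose, with a median log2 FC of -1.45. Anxa2 was measured at 49.1, 64.0 and 81.4 CPM in WT mESCs and 14.3, 10.4 and 16.7 CPM in Hmgn1-/- mESCs, and its log2 FC was -2.23, SE = 0.18, adjusted p = 8.70e-07. Lgals3 (galectin 3) was measured at 31.2, 41.6 and 43.7 CPM in WT mESCs and 7.01, 7.30 and 9.26 CPM in Hmgn1-/- mESCs, and its log2 FC was -2.30, SE = 0.14, adjusted p = 8.82e-08. S100a6 fell with a wider spread between libraries, at 51.7, 93.2 and 117 CPM in WT mESCs and 19.7, 13.3 and 40.4 CPM in Hmgn1-/- mESCs, and its log2 FC was -1.84, SE = 0.32, adjusted p = 6.93e-04. Cav1, the coat protein of caveolae, had 73 counts over the WT libraries and 3 over the Hmgn1-/- libraries, a ratio of 21.3 with an exact 95% counting interval of 7.01 to 105.7. Anxa7 and Anxa4, by contrast, had log2 FC -0.09 and -0.03. Among kallikreins, secreted serine proteases from a single gene cluster, 5 of 26 were tested and 4 fell, with a median log2 FC of -2.03.

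Markers of other cell types that a culture could hold were read beside these groups. Their counts are to be set beside the 5.08% of all tested genes that fell and the 0.898% that rose. Of 10 fibroblast markers, 4 were tested and 3 fell, and the summed level of the list was 21.6, 17.9 and 22.5 CPM in WT mESCs and 7.01, 5.86 and 6.64 CPM in Hmgn1-/- mESCs. Thy1 was the gene with the highest CPM (10.9, 11.5 and 12.1 CPM in WT mESCs and 3.62, 3.84 and 3.69 CPM in Hmgn1-/- mESCs). The defining genes Lum and Fap had no count in any of the 6 libraries, and Col3a1, Dcn, Postn and S100a4 were too low to test. Of 10 genes listed as macrophage markers, 4 were tested. The highest log2 FC among them was 0.72, not past the threshold, and the other 3 fell. These include Csf1, a secreted ligand that macrophages need and not a marker of the cells themselves, with 9.38, 8.65 and 11.1 CPM in WT mESCs and 0.771, 0.384 and 1.29 CPM in Hmgn1-/- mESCs. The summed level of the list, Csf1 included, was 31.8, 40.3 and 45.1 CPM in WT mESCs and 9.82, 11.1 and 12.7 CPM in Hmgn1-/- mESCs, of which Cd68 held the most. Emr1 and Lyz1 had no count in any library, and Csf1r, Ptprc, Lyz2 and Aif1 were too low to test. The call for Itgam was lost without WT replicate 2, Hmgn1-/- replicate 1 or Hmgn1-/- replicate 3, with adjusted p = 0.0481, 0.0597 and 0.0419, and with all 12 libraries in the fit (0.0195). Of 9 endothelial markers, 7 were tested, 3 rose (Esam, Robo4 and Sox18) and 3 fell (Tek, Flt1 and Kdr). Their summed level was 83.4, 93.6 and 92.4 CPM in WT mESCs and 74.9, 72.0 and 78.2 CPM in Hmgn1-/- mESCs, most of it Pecam1, which mESCs also express. Emcn had no count in any library and Cdh5 was too low to test. The call for Esam was lost without Hmgn1-/- replicate 1 or 3, with adjusted p = 0.0181 and 0.0201, and that for Kdr as given above. The expression filter can admit a gene for its level in WT. With no filter beyond 1 count, 8 genes of each list were tested. Of these 3 fell in each list, and 3 endothelial markers rose. The part of such cells in the falls was not tested.

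Interferon-inducible genes formed a further group of falls. These genes are switched on by interferons in defence against viruses and are held at a low level in mESCs. Of 34, 26 were tested, 19 fell and none rose, against 5.08% of all tested genes that fell, and the median log2 FC was -1.89. With no filter beyond 1 count 33 were tested and 20 fell. With at least 10 counts in every library 21 were tested and 14 fell. Gbp2 was measured at 9.97, 11.7 and 13.8 CPM in WT mESCs and 0.809, 0.865 and 0.968 CPM in Hmgn1-/- mESCs, and its log2 FC was -3.74, SE = 0.19, adjusted p = 1.99e-08. Irgm1, a GTPase that acts on vacuoles with pathogens, was measured at 5.85, 9.73 and 10.3 CPM in WT mESCs and 0.963, 1.11 and 1.20 CPM in Hmgn1-/- mESCs, and its log2 FC was -2.97, SE = 0.25, adjusted p = 1.32e-06. Oas1a, a sensor of double-stranded RNA, was measured at 8.53, 9.56 and 8.73 CPM in WT mESCs and 1.39, 1.44 and 2.12 CPM in Hmgn1-/- mESCs, and its log2 FC was -2.44, SE = 0.18, adjusted p = 4.85e-07. The groups were far apart for each. Of the factors that carry the interferon signal, Irf1 fell (log2 FC = -1.10, SE = 0.10, adjusted p = 2.35e-06), while Stat2 and Irf9 did not pass (0.06 and 0.23). Parp14 and Bst2 had log2 FC 0.76 and 0.00, and neither was past the threshold. The call for Igtp was lost without any of the libraries other than Hmgn1-/- replicate 2, with adjusted p up to 0.0319. Isg15, Irf7, Ifit1, Ifit3 and Mx1, which respond strongly to interferon, were too low to test. The Gbp, Oas1 and Irgm genes have close relatives with which reads may be shared.

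The interferon-stimulated response element was looked for in the same promoter windows as GAAANNGAAA on both strands. Of the 20 tested list genes with a promoter in the table, 12 held it, against 2.83% of tested genes with a promoter and 2.98% of all promoters. The genes were put in the list as known to respond to interferon, so a high share is expected. Of the 16 with a promoter that fell, 9 held it, as did 3 of the 4 that were not past the threshold. The promoters of Gbp2 (chr3:142620413-142620662, plus strand), Irgm1 (chr11:48871421-48871670, minus strand) and Oas1a (chr5:120907526-120907775, minus strand) are given because these genes were described above, with the matches in capitals.
Gbp2: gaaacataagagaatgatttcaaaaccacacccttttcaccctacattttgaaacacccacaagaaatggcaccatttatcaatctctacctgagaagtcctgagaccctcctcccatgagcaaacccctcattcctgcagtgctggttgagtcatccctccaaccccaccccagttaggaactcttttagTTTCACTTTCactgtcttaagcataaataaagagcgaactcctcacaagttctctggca
Irgm1: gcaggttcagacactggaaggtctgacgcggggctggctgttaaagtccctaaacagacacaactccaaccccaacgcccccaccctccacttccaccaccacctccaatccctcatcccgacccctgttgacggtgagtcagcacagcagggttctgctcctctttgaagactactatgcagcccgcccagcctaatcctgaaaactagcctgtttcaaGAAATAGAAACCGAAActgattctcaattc
Oas1a: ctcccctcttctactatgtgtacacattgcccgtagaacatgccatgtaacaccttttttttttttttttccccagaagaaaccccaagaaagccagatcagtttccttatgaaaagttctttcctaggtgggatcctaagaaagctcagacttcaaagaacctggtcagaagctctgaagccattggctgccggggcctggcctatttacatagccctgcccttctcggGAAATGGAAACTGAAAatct
In Gbp2 the match begins 59 bases before the start. Irgm1 and Oas1a each hold 2 overlapping matches, which begin 30 and 24 bases before the start in Irgm1 and 20 and 14 in Oas1a. Irgm2, Stat2 and Bst2, which were not past the threshold, held the letters too.

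Genes for antigen presentation on MHC class I, many of which also respond to interferon, were read as a list of their own. Of 12, 11 were tested, 3 fell (27.3%, against 5.08% of all tested genes) and none rose, with a median log2 FC of -0.60. The falls were Erap1, which trims peptides (-1.63), Psmb8, an immunoproteasome subunit (-2.37), and Tapbp, which loads peptides (-1.01). The call for Tapbp sat at the fold limit and was lost without WT replicate 2, WT replicate 3 (-0.99) or Hmgn1-/- replicate 2 (-0.99). H2-K1 was measured at 30.8, 21.0 and 17.7 CPM in WT mESCs and 27.1, 28.7 and 21.9 CPM in Hmgn1-/- mESCs, with overlapping groups. The H2 genes are near-identical in parts, and their values are uncertain.

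Signalling genes were read by pathway role. Of 24 Wnt pathway genes, 23 were tested, 9 fell (39.1%) and 1 rose (4.35%), against 5.08% and 0.898% of all tested genes. In all 19 had at least 10 counts in every library, and of these 6 fell and none rose. The falls were Dkk3, a secreted relative of the Dkk inhibitors (-1.41), 7 ligands and their carrier, with log2 FC -2.92 for Wnt7b, -3.37 for Wnt7a, -2.05 for Wnt4 and -1.42 for Wls, the protein that escorts Wnts to the surface. Wnt7a was measured at 1.26, 1.24 and 2.12 CPM in WT mESCs and 0.0771, 0.0961 and 0.277 CPM in Hmgn1-/- mESCs, and its log2 FC was -3.37, SE = 0.47, adjusted p = 1.14e-04. Wnt3 and Wnt8a are given above. Receptors and the transcriptional targets Axin2 and Sp5 did not pass the threshold, with log2 FC 0.09 for Fzd7, 0.02 for Lrp6, 0.24 for Axin2 and 0.26 for Sp5. Fzd5 was higher below the fold limit (0.57). The single rise was the inhibitor gene Dkk1, given above. The call for Wnt5a was lost without WT replicate 2, Hmgn1-/- replicate 1 or Hmgn1-/- replicate 2, with adjusted p up to 0.0213. That for Wnt6 was lost without any of the libraries other than WT replicate 1, with adjusted p up to 0.0462.

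Of 21 genes of the TGF-beta, BMP and Nodal pathways, all tested, 8 fell (38.1%) and 2 rose (9.52%), against 5.08% and 0.898% of all tested genes, with a median log2 FC of -0.57. Of the 21 genes 18 had at least 10 counts in every library, and of these 6 fell and 1 rose. Id2, Id3 and Id4, which BMP signals induce, fell (-2.38, -1.35 and -1.14), while Id1 did not pass (-0.27). Id2 was measured at 28.1, 45.2 and 54.2 CPM in WT mESCs and 6.70, 8.94 and 8.85 CPM in Hmgn1-/- mESCs, and its log2 FC was -2.38, SE = 0.20, adjusted p = 1.58e-06. The ligand gene Bmp6 rose (1.53), as did Bmper, and the antagonist genes Nog and Fst fell (-2.43 and -1.29). Bmp4 was higher below the fold limit (0.83). Nodal had a log2 FC of -0.94 and was past the limit without WT replicate 1 (-1.05) or Hmgn1-/- replicate 2 (-1.02). Lefty1, a Nodal inhibitor, varied widely, at 119, 61.2 and 44.0 CPM in WT mESCs and 32.1, 46.9 and 17.4 CPM in Hmgn1-/- mESCs. It missed the adjusted p (log2 FC = -1.22, SE = 0.32, adjusted p = 0.0118) and was called with the replicate block (log2 FC = -1.21, adjusted p = 1.17e-06), with no filter beyond 1 count, and without WT replicate 3 or Hmgn1-/- replicate 2 (adjusted p = 0.00102 and 0.00492).

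Of 22 FGF pathway genes, all tested, 3 rose and 3 fell (13.6% each, against 0.898% and 5.08% of all tested genes), and the median log2 FC was 0.26. At the adjusted p alone 8 were higher and 6 lower, against 7.28% and 10.1% of all tested genes. In this list 19 had at least 10 counts in every library, and of these 1 fell and 1 rose. The ligand genes Fgf5, Fgf8 and Fgf18 fell (-1.57 for Fgf18), and Fgf10, Fgfr3 and Klb rose. Calls for Fgf10 and Fgfr3 were lost without Hmgn1-/- replicate 1, with adjusted p = 0.0111 and 0.0678, which left 1 rise in the list. Fgfr3 also lost its call without WT replicate 2 or 3 or Hmgn1-/- replicate 3, with adjusted p = 0.0313, 0.0316 and 0.0104, and with at least 10 counts in every library (0.0103). Fgf4, the FGF that mESCs secrete, was measured at 298, 348 and 319 CPM in WT mESCs and 266, 295 and 268 CPM in Hmgn1-/- mESCs, with log2 FC -0.22. The Dusp, Spry and Spred genes, feedback inhibitors of the pathway, had log2 FC between 0.23 (Dusp6) and 0.51 (Spred2) and were not past the threshold.

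Imprinted genes, which are expressed from a single parental copy and are known to vary between mESC clones, fell in part. Of 28, 25 were tested, 7 fell (28%, against 5.08% of all tested genes) and none rose, with a median log2 FC of -0.24. Igf2, a fetal growth factor, was measured at 63.2, 65.0 and 89.4 CPM in WT mESCs and 10.4, 10.6 and 10.8 CPM in Hmgn1-/- mESCs, and its log2 FC was -2.77, SE = 0.13, adjusted p = 6.61e-09. H19, the non-coding neighbour of Igf2 that is expressed from the opposite parental copy, was measured at 4.09, 4.35 and 5.32 CPM in WT mESCs and 0.308, 0.721 and 0.369 CPM in Hmgn1-/- mESCs, and its log2 FC was -3.32, SE = 0.29, adjusted p = 2.17e-06. Both fell, with no overlap. Nnat, Dio3, Ascl2, Magel2 and Peg3 were the other falls (-3.01, -2.67, -2.08, -1.48 and -1.03). The call for Peg3 was lost without WT replicate 2 (-0.96) or Hmgn1-/- replicate 3 (-0.94). Meg3, Rian and Mirg, maternal transcripts of the same cluster as Dlk1, had positive values below the fold limit (0.75, 0.63 and 0.61), and Dlk1 did not pass (-0.21). Of 14 p53 target genes, 13 were tested and 1 fell (7.69%, against 5.08% of all tested genes), Trp73, a p53 relative (log2 FC -1.40). At the adjusted p alone 7 of the 13 were lower and none higher, against 10.1% and 7.28% of all tested genes. Cdkn1a (p21), which halts the cell cycle, was at 36.3, 32.0 and 35.3 CPM in WT mESCs and 18.7, 17.8 and 17.3 CPM in Hmgn1-/- mESCs and stayed just inside the fold limit, with a log2 FC of -0.95, SE = 0.09, adjusted p = 2.82e-06.

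Among genes for the chromatin machinery itself, a pair was past the threshold, and others passed the adjusted p below the fold limit. Of 16 genes for acetyltransferases, deacetylases and histone H2A variants, 15 were tested and 2 rose (13.3%, against 0.898% of all tested genes). Both encode macroH2A, a variant with a large extra domain that is linked to silent chromatin. H2afy was measured at 93.9, 71.5 and 73.5 CPM in WT mESCs and 162, 171 and 164 CPM in Hmgn1-/- mESCs, and its log2 FC was 1.05, SE = 0.09, adjusted p = 1.29e-06. H2afy2 was measured at 23.6, 14.0 and 13.6 CPM in WT mESCs and 37.8, 35.6 and 34.1 CPM in Hmgn1-/- mESCs, and its log2 FC was 1.05, SE = 0.16, adjusted p = 2.72e-04. WT replicate 1 was the highest of the WT libraries for both, and without WT replicate 2 or 3 neither was past the fold limit, H2afy2 then having a log2 FC of 0.94 or 0.90. Ep300, Hdac1 and H2afz, the gene for the variant H2A.Z, had log2 FC 0.03, 0.06 and 0.14. Of 13 genes for PRC2, which methylates H3K27, and for the enzymes that remove the mark, edgeR and DESeq2 each called 0, with 7 at an unadjusted p under 0.05 (53.8%, against 38.7% of all tested genes, here and for the next lists), and the median was -0.08. Phf19 and Kdm6a of that list were lower below the fold limit (-0.70 and -0.42). Ezh2, the catalytic subunit, was measured at 172, 165 and 162 CPM in WT mESCs and 188, 174 and 178 CPM in Hmgn1-/- mESCs, with log2 FC 0.12. Of 11 cohesin and CTCF genes both tools called 0, with 5 at an unadjusted p under 0.05 (45.5%) and a median of 0.07, and Pds5a and Mau2 were higher below the fold limit (0.26 and 0.24). Of 11 DNA methylation genes, 10 were tested and both tools called 0, with 5 at an unadjusted p under 0.05 (50%). There Dnmt3a and Tet1 were higher and Dnmt3l lower below the fold limit (0.70, 0.54 and -0.72). Of 7 linker histone genes both tools called 0, with 3 at an unadjusted p under 0.05 (42.9%), and H1f0 and H1fx were higher below the fold limit, with log2 FC 0.46 and 0.44.

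Genes for growth and energy supply, grouped by name, had few calls. Of 75 tested ribosomal protein genes both edgeR and DESeq2 called 0, with 5 at an unadjusted p under 0.05 (6.67%, against 38.7% of all tested genes), and the summed level of that group was 87089, 81964 and 83865 CPM in WT mESCs and 78417, 83307 and 88381 CPM in Hmgn1-/- mESCs. Of 75 nuclear genes for oxidative phosphorylation and 73 for mitochondrial ribosomal proteins both tools called 0, with 17 and 15 at an unadjusted p under 0.05 (22.7% and 20.5%). Of 35 core histone genes and 7 Hox genes both tools also called 0, with 3 and 1 at that p (8.57% and 14.3%), though core histone messages mostly lack the tail by which this RNA was selected. Of 38 proteasome genes 1 fell, Psmb8 (2.63%).

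Other groups by name are given with their shares, to be set beside the 5.08% of all tested genes that fell and the 0.898% that rose. Genes whose symbols begin with Cd and a digit, most of them CD antigens, had 9 falls among 39 (23.1%), serpins 3 among 14 (21.4%) and ADAM and ADAMTS proteases 3 among 25 (12%), with no rises. Solute carriers had 16 falls (6.58%) and 4 rises (1.65%) among 243, tripartite motif genes 3 falls (6.98%) and 1 rise (2.33%) among 43, potassium channels 1 fall (2.44%) and 2 rises (4.88%) among 41, and Zfp genes 3 of each (0.888%) among 338.

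Chromosomes 8 and X stood apart from the others. Positions were taken from the RefSeq gene table of GRCm38.p6, which placed 99.7% of tested genes. On chromosome 8, 747 genes were tested, and their median log2 FC was 0.26, with 83.1% of them above 0. The medians of the other autosomes lay between -0.04 and 0.03, with 43.6% to 54.3% of genes above 0. Among genes of at least 50 mean counts, the median log2 ratio of chromosome 8 to the WT mean was 0.27, 0.26 and 0.26 in the Hmgn1-/- libraries and -0.02, 0.01 and 0.00 in the WT libraries. In windows of 20 Mb along the chromosome the median stayed between 0.24 and 0.30. Chromosome 8 took 5.81%, 5.95% and 5.92% of all counts in the WT libraries and 6.94%, 6.97% and 6.97% in the Hmgn1-/- libraries. It held 271 of the 1013 genes that were higher at the adjusted p alone. Past the fold limit it held 15 of the 125, the most of any chromosome. Those 15 of its 747 tested genes are to be set beside the 0.898% of all tested genes that rose. Of genes described above, Acta1, Rln3, Col4a1, Col4a2, Sox1, Hmgb2, Cdh1, Mau2, Klf2 and Bst2 are on this chromosome, and the values of Col4a1, Col4a2, Sox1, Hmgb2, Cdh1 and Mau2, between 0.24 and 0.83, lie on the side of its shift. In the direct test against Hmgn2-/- mESCs, its median was -0.01. DNA copy number was not measured, and the part of the chromosome in the small rises was not tested.

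**Figure D5:**
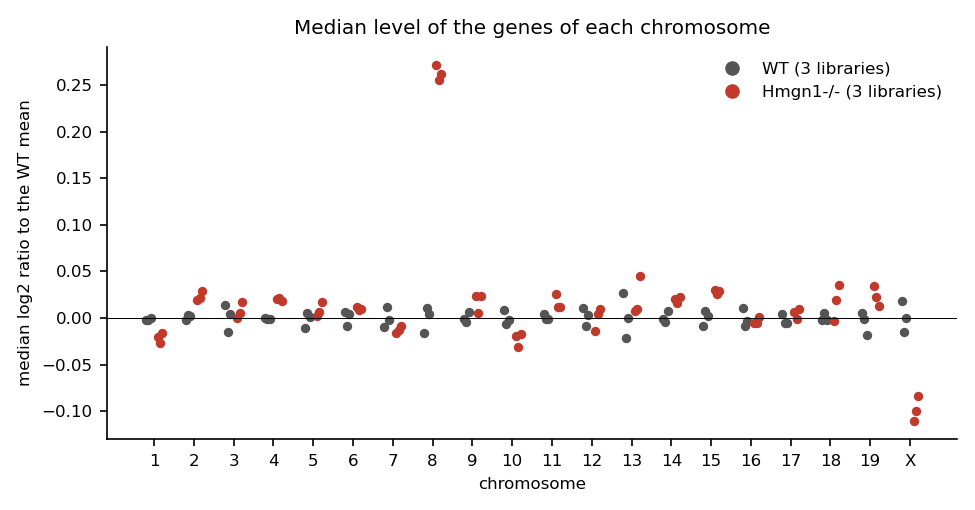
Median log2 ratio to the WT mean (offset of 0.5 CPM) over genes with at least 50 mean counts, by chromosome, with a point for each library. The 3 Hmgn1-/- libraries lie at 0.26 to 0.27 for chromosome 8 and at -0.11 to -0.08 for chromosome X, and within 0.05 of 0 elsewhere.

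On the X chromosome, 487 genes were tested, 42 fell and 2 rose, and the median log2 FC was -0.14. These DEGs were 9.03% of its tested genes, against 5.98% of all tested genes. In the direct test against Hmgn2-/- mESCs, the median of the X chromosome was -0.0001. The shift lay at the start of the chromosome. Over the 70 genes of at least 50 mean counts in the first 30 Mb the median was -0.46 and 1.43% were above 0, while in the windows beyond it lay between -0.10 and -0.01. The windows were set after the values were seen. Of genes described above, Klhl4, Klhl13, Usp26, Pnma5, Rhox6, Rhox9, Fhl1, Bgn, Sox3, Hmgn5, Hmgb3 and Kdm6a are on this chromosome. Klhl13 and Kdm6a lie in the first 30 Mb, and the value of Kdm6a (-0.42) is near the median there. All 4 tested genes of the Y chromosome, which passed the filter by their WT level, fell. Of the 8 genes on the Y-linked list, 3 were tested. With no filter beyond 1 count 5 were tested and 3 fell, and with at least 10 counts in every library none could be tested. Ddx3y, an RNA helicase, had 175 counts over the WT libraries and 3 over the Hmgn1-/- libraries. Uty, a relative of the H3K27 demethylases, had 81 and 3 counts, a ratio of 23.6 with an exact 95% counting interval of 7.80 to 117. Eif2s3y was measured at 2.52, 1.87 and 2.05 CPM in WT mESCs and 0.231, 0.432 and 0.138 CPM in Hmgn1-/- mESCs, and its log2 FC was -3.01, SE = 0.36, adjusted p = 3.64e-05. Uba1y was the other of the 4, named after its values were seen. These genes were low in WT mESCs already, and a share of cells without the chromosome and less RNA per cell cannot be told apart. With genes of chromosomes 8, X and Y left out, 751 DEGs remained, 108 higher and 643 lower.

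The Hmgn1-/- line was then set directly against the Hmgn2-/- line, in a fit that did not use the WT libraries. The question was which genes set the Hmgn1-/- line apart from the line that lacks HMGN2. Of 13648 genes tested, 24 were DEGs (0.176%), 16 higher and 8 lower in Hmgn1-/- mESCs. The targeted genes were among them. Hmgn1 was at means of 139 CPM in Hmgn1-/- and 577 CPM in Hmgn2-/- mESCs (log2 FC = -2.06), and Hmgn2 at 109 and 52.7 CPM (log2 FC = 1.04). None of the 13 primitive endoderm genes that rose against WT was past the threshold in the direct test, and a p that misses it does not show equal levels. Of the other falls, Nnat and Dock11 were lower than in both WT and Hmgn2-/- mESCs. Nnat, the imprinted neuronatin gene, had a mean of 1.42 CPM in Hmgn1-/- and 14.2 CPM in Hmgn2-/- mESCs (log2 FC = -3.34). Dock11, an X-linked activator of small GTPases, had 1.95 and 12.5 CPM (log2 FC = -2.68), and against WT its log2 FC was -3.31. C1qtnf1, a secreted C1q-like protein, had 2 counts over the Hmgn1-/- libraries, 93 over the Hmgn2-/- libraries and 117 over the WT libraries, a ratio of Hmgn2-/- to Hmgn1-/- of 46.2 with an exact 95% counting interval of 12.4 to 388.

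Most of the direct differences were in genes not past the threshold against WT. Grb10, an imprinted adaptor of growth factor receptors, had a mean of 400.3 CPM in Hmgn1-/- and 34.4 CPM in Hmgn2-/- mESCs, while its log2 FC against WT was 0.33. Peg13, an imprinted non-coding RNA, had 280 counts over the Hmgn1-/- libraries and 2 over the Hmgn2-/- libraries, a ratio of 141 with an exact 95% counting interval of 38.6 to 1168, while against WT it was higher below the fold limit (0.80). A block of chromosome 9 (chr9:107542177-108392545) held 12 of the 16 genes that were higher than in Hmgn2-/- mESCs, among them Gnai2, Usp4, Hyal2, Rassf1 and Gpx1. Its edges were set by the outermost of these genes, after the values were seen, so the values inside it are not independent of that choice. Over the 28 genes of at least 50 mean counts that start in the block, the direct median was 1.00 and the lowest value 0.82, while the median against WT was 0.07. Slc38a3, an amino acid carrier in that block, was also past the threshold against WT (1.12), a call lost without WT replicate 3 (0.95).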

How the data were processed

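Polyadenylated RNA was sequenced in paired ends from 3 libraries of each of 4 genotypes. The values are counts per gene symbol as deposited by the authors, who aligned reads to mm10 with STAR and used DESeq2 for their own comparisons, while the counting program, annotation and strand setting are not given in the sources used here. Reads of overlapping or antisense genes can therefore not be told apart, and reads of near-identical copies may have been split. Replicates were compared by a chi-square test of their counts, and none agreed within sampling noise. Among WT libraries the chi-square per degree of freedom was 11.2 and 12.1 for the pairs with replicate 1 and 3.4 between replicates 2 and 3, and among Hmgn1-/- libraries it was 5.36 to 9.37. Among Hmgn2-/- libraries it was 36.4 and 20.6 for the pairs with replicate 3 and 8.11 between replicates 1 and 2.

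Tests used edgeR 4.0.16 in R 4.3.3 (quasi-likelihood F-test, TMM, default expression filter, Benjamini-Hochberg adjustment over all genes tested) on 6 libraries at a time. The SE of a log2 FC is its size divided by the square root of F. The common biological coefficient of variation was 0.0785. Total counts ranged from 17337908 to 31448468 over the 12 libraries. Exact intervals and floors (3 counts per library) cover counting error only. The steps were tested on simulated data. Deviations from the group means of the same-numbered Hmgn1-/- and WT libraries correlated at 0.29, 0.15 and 0.33 across 11602 genes. Those of Hmgn1-/- and Hmgn2-/- libraries correlated at 0.44, 0.23 and 0.45 across 11338. The numbers were therefore taken to pair the samples. The main fits left this pairing out, and the replicate number was used as a block only in an alternative fit.

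Genes were named by a rule: the HMG family, members of 33 gene lists, the 15 largest rises and falls among DEGs averaging at least 50 counts without overlap, the 5 DEGs of highest CPM in each direction, and the DEGs against Hmgn2-/- mESCs. Values of a few list members are not reported here. A further 15 groups were formed from gene symbols. Members and lists were chosen with earlier results of these data known. Of 492 list genes, 491 were in the table and 442 were tested. Promoter sequences and gene positions are from RefSeq (GRCm38.p6). Alternatives were RLE and upper quartile scaling, DESeq2 1.42.0, other filters and limits, a test against the fold limit (glmTreat), a fit of all 12 libraries, the block, and fits without each library. The count without chromosomes 8, X and Y and the classes by mean of both groups were added after the data were seen.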

Additional observations from a re-analysis of the deposited data

Results flagged for a closer look

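Each DEG between Hmgn1-/- and Hmgn2-/- mESCs is a gene whose level differed between the lines in a direct test. Each line is a single clone, so effects of the knockouts and of the clones cannot be told apart. Lower in Hmgn1-/- mESCs were C1qtnf1 (log2 FC -5.31), Nnat (-3.34), Dock11 (-2.68), Hmgn1 (-2.06), Erdr1 (-1.16), Peg10 (-1.10), D7Ertd715e (-1.08) and Usp36 (-1.04). Higher on chromosome 9 were Rassf1 (1.00), Hyal2 (1.01), Usp4 (1.02), Tusc2 (1.03), Rnf123 (1.05), Gpx1 (1.06), Nat6 (1.08), Nprl2 (1.12), Gnai2 (1.13), Camkv (1.14), Gnat1 (1.80) and Slc38a3 (2.21). Higher elsewhere were Hmgn2 (1.04), Tmc6 (1.09), Grb10 (3.54) and Peg13 (6.89). The fitted values of C1qtnf1 and Peg13 rest on 2 counts in the lower group.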

How the results depend on the processing

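Of 211 genes named above or in a list that were past the threshold apart from Hmgn1, none changed direction under the alternatives run, and 187 kept their call under every alternative that gave them a value other than glmTreat, which kept 115. With at least 10 counts in every library only 143 of the 211 had a value, and without WT replicate 1 or 3 there were 209. The log2 FC of Hmgn1 stayed past the threshold throughout, between -2.19 and -2.12 with a library left out. Counts moved with the limits. With glmTreat there were 234 DEGs, 20 higher and 214 lower, and with no fold limit 2412, 1013 higher and 1399 lower, since the former asks more and the latter less of the fold. With at least 10 counts in every library, which removes genes near 0 in a group, 467 were lower. Leaving out a library gave 659 to 973 DEGs, 91 to 160 higher and 568 to 813 lower, with the most DEGs without WT replicate 1. DESeq2 gave 799 DEGs, RLE scaling 831 and upper quartile scaling 842, and the split between falls and rises moved by under 10 percentage points with scaling. With the replicate block there were 902, 136 higher and 766 lower, and calls were gained for Apom, Col5a2, Lefty1 and Tbx6. The block changed no other call among the named genes. Against Hmgn2-/- mESCs glmTreat gave 7 DEGs, no fold limit 48, the block 30, and leaving out a library 17 to 28, the most without Hmgn2-/- replicate 3. The median log2 FC of chromosome 8 lay between 0.24 and 0.27 and that of chromosome X between -0.20 and -0.12 over all alternatives. Depth limits genes with few counts, and 442 of the 491 list genes in the table could be tested.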
